A study of Mus musculus and Rattus norvegicus with 36 samples.

Results

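The genes described here are 39 genes of the actin cytoskeleton and of cell adhesion, followed over every diet of a selenium (Se) feeding study in rat liver, mouse liver and mouse kidney. They were taken as a given list of gene symbols, and each gene was read from the probe set that carries its symbol alone, or from the brightest such probe set in the tissue where there are several. On this basis 36 of the 39 genes were measured in rat liver, among 14217 named genes on the rat array. In both mouse tissues 38 of the 39 were measured, among 18193 named genes. In the rat, Actb, Myl6 and Cfl1 occur only on probe sets that carry several symbols, and in the mouse the same holds for S100a11.

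The study asked how the transcriptome responds to Se intakes that run between deficiency and toxicity. Male weanling Holtzman rats were fed for 28 days, and male mice of a colony with a mainly C57 black background were fed for 35 days. All animals received the same torula-yeast basal diet, which was low in Se and carried added vitamin E and methionine, and the diets differed in the sodium selenite added to it. Affymetrix arrays covering the genome were hybridised with RNA of whole tissue, 3 animals per diet. In rat study 2 the livers came from rats fed the Se-deficient basal diet, or that diet with 0.24, 2 or 5 μg Se/g. In rat study 1 they came from rats fed 0.08 or 0.8 μg Se/g. Mouse livers and kidneys came from animals fed the Se-deficient diet, or that diet with 0.05 μg Se/g or 0.2 μg Se/g. No animal carried a transgene or a deletion. The diets with 0.24 μg Se/g in rat study 2 and with 0.2 μg Se/g in mice served as the Se-adequate diets. Each array holds RNA of 1 animal, and in the mouse both tissues came from the same 3 animals per diet. An exact permutation test of 3 against 3 arrays could not give a two-sided p below 0.1. The tests given here come from models fitted across all probe sets. Livers were perfused before removal.

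Actin filaments give a cell its shape and, together with myosin, its contractile force. Tropomyosins, calponins and transgelins lie along or bundle these filaments, filamin and α-actinin crosslink them, and talin, vinculin, paxillin and zyxin join them to integrins, the receptors that hold a cell to its matrix. In liver, most of the tissue mass is hepatocytes, while smooth muscle actin, transgelin and vimentin are best known from the smooth muscle of vessels and from stellate cells and fibroblasts. Annexins and S100 proteins bind calcium, and several of them bind actin or the membrane next to it.

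All values are deposited log2 levels, and a difference of 1 is a 2-fold difference. Hepatocyte genes marked every rat liver, with albumin (Alb) at 14.97 at 5 μg Se/g, against 14.95 at 0.24 μg Se/g. Mouse kidneys of the Se-deficient and the Se-adequate diet held uromodulin (Umod) at 13.69 and 13.66, and mouse livers of these diets held Alb at 14.84 and 14.85. Of the rat arrays, replicate 1 at 2 μg Se/g stood apart. It differed by over 2-fold from the mean at 0.24 μg Se/g for 1964 probe sets, against 136 and 147 in the other arrays of its diet. The counts of calls and the median changes in comparisons with that diet are therefore also given without it. It also enters the spread estimate shared by the other comparisons of study 2. In whole tissue, fewer cells of a type and less RNA per cell cannot be told apart.

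Among the diets set against a Se-adequate diet, the largest median shift of these genes was in rat liver at 5 μg Se/g. The study reported that rats of this diet weighed less than those of the other diets. Their plasma alanine aminotransferase activity, a marker of liver damage, was higher. The part of either in the values at 5 μg Se/g was not tested. Of the 36 measured genes, 17 were higher than at 0.24 μg Se/g at an adjusted p under 0.05 (47.2%) and 0 were lower, where 2.21% of all 31042 probe sets were called higher and 0.609% lower. The list was chosen with earlier results of these data known, so this excess is a description. Of 20 further probe sets of 13 of these genes, 2 were called higher and 0 lower. The median log2 change over the 36 genes was 0.72, against -0.03 over all probe sets. All but caldesmon (Cald1) lay above 0, where 42.6% of all probe sets did, and 31 of the 36 had every array at 5 μg Se/g above every array at 0.24 μg Se/g, compared with 11.1% of all probe sets. Values per gene follow by the role of the protein, and the plot of the 36 log2 changes shows them in order of size.

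**Figure D1:**
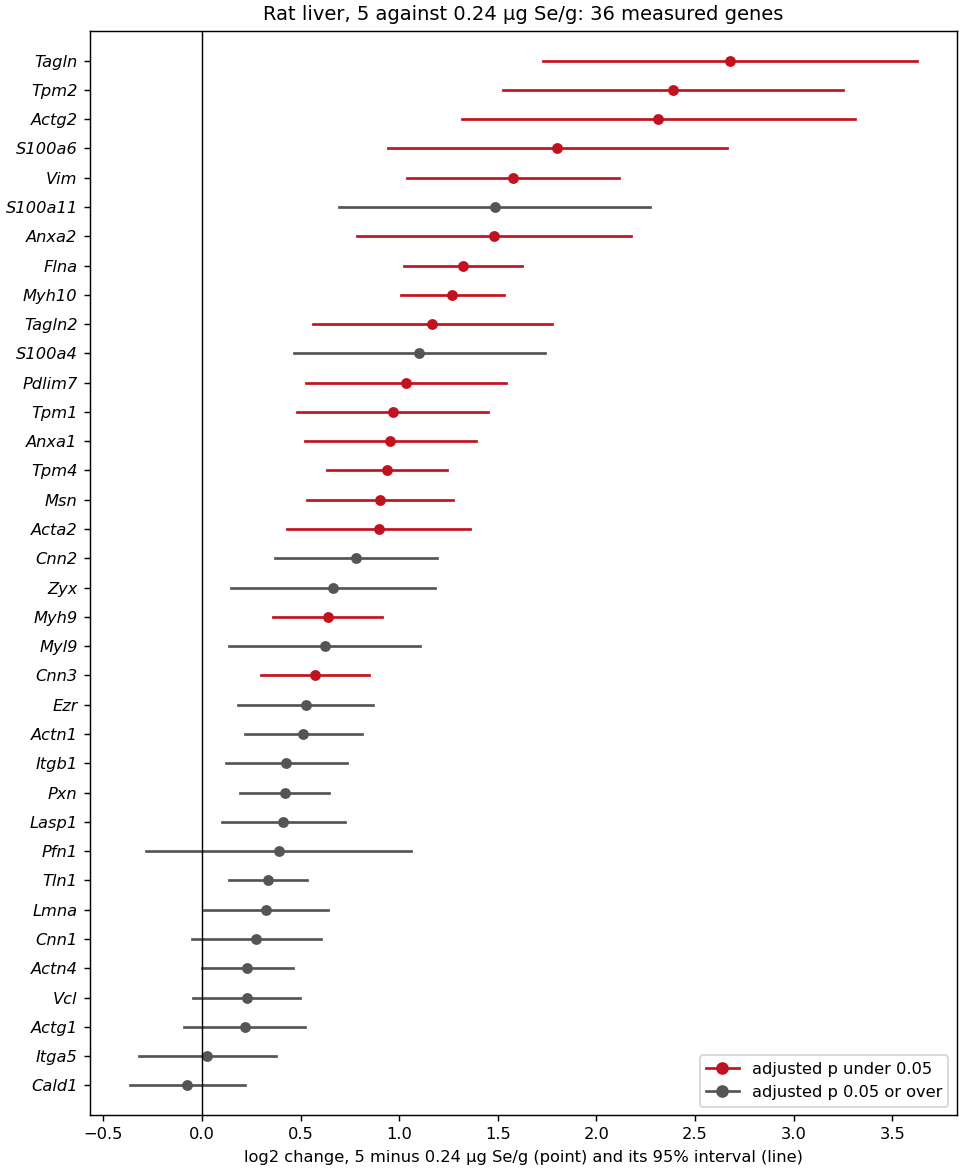
Log2 change (x axis, 5 minus 0.24 μg Se/g) of the 36 measured genes in rat liver, one gene per row, with its 95% interval as a line and genes at an adjusted p under 0.05 in red. Changes run between -0.07 for Cald1 and 2.68 for Tagln.

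Among the 9 genes that coat or bundle the thin filament, 6 were higher at 5 μg Se/g, and the 2 largest changes of the whole list were in this group. Transgelin (Tagln), an actin-bundling protein of smooth muscle, read 10.85, 10.89 and 9.92 at 5 μg Se/g, against 7.97, 7.90 and 7.77 at 0.24 μg Se/g. The lowest of the 3 livers at 5 μg Se/g was thus well above the highest Se-adequate liver, and the fitted change was 2.68 ± 0.43 (SE), a 6.40-fold rise (adjusted p = 0.00704). Tropomyosin 2 (Tpm2), the β-tropomyosin of muscle, read 9.48, 9.56 and 8.35 at 5 μg Se/g, against 6.69, 6.68 and 6.85 at 0.24 μg Se/g. Its change was 2.39 ± 0.39 (SE), or 5.24-fold (adjusted p = 0.00782), again with replicate 3 the lowest at 5 μg Se/g. A further Tpm2 probe set, whose mean level at 0.24 μg Se/g was 4.35, was at -0.21 and was not called, so that the rise of Tpm2 rests on 1 probe set.

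The other tropomyosins rose less. Tpm4, a tropomyosin of non-muscle cells, read 10.82, 11.01 and 10.69 at 5 μg Se/g, against 9.99, 9.88 and 9.84 at 0.24 μg Se/g, a change of 0.94 ± 0.14 (SE; adjusted p = 0.00458). A further Tpm4 probe set was called as well, at 0.84. Tpm1, the α-tropomyosin, read 10.85, 10.61 and 10.29, against 9.67, 9.92 and 9.27 at 0.24 μg Se/g, a change of 0.97 ± 0.22 (SE; adjusted p = 0.0409). The differences of the 6 further Tpm1 probe sets lay between 0.09 and 1.06, and 1 of them was called (adjusted p = 0.00529). Both genes thus had separate groups, and for both a further probe set passed the test.

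Transgelin 2 (Tagln2), the broadly expressed relative of Tagln, read 10.73, 11.03 and 10.68 at 5 μg Se/g, against 9.67, 9.50 and 9.78 at 0.24 μg Se/g. The change was 1.17 ± 0.28 (SE; adjusted p = 0.0468). The calponins, which bind actin and tropomyosin, were split. Calponin 3 (Cnn3) read 11.11, 11.18 and 11.25, against 10.68, 10.44 and 10.70 at 0.24 μg Se/g, a change of 0.57 ± 0.12 (SE; adjusted p = 0.032). Cnn2 had separate groups and a change of 0.78 (adjusted p = 0.0513), just missing the threshold, and Cnn1, the calponin of smooth muscle, overlapped between the diets at a change of 0.28 (adjusted p = 0.437). Caldesmon was the only measured gene below 0. It read 12.09, 12.01 and 11.99 at 5 μg Se/g, against 12.13, 12.23 and 11.96 at 0.24 μg Se/g, a change of -0.07 with a 95% interval of -0.37 to 0.22.

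**Figure D2:**
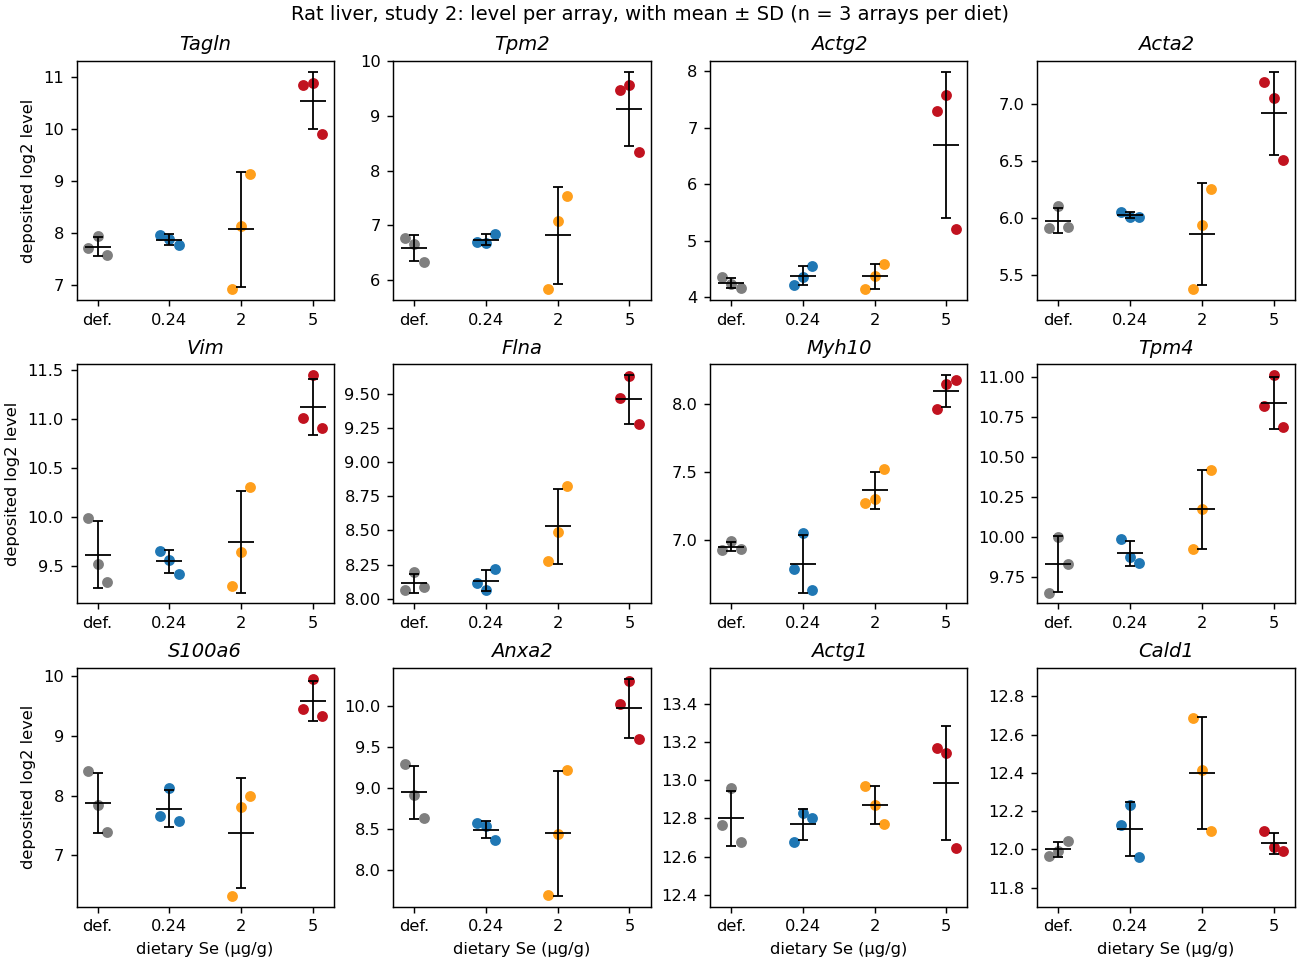
Deposited log2 level (y axis) in each of the 12 rat study 2 livers by dietary Se (x axis, def. is the Se-deficient diet), with mean ± SD of 3 arrays, for 12 of the genes. Tagln, Tpm2 and Actg2 are highest at 5 μg Se/g with replicate 3 the lowest of that diet, and Actg1 and Cald1 overlap between 5 and 0.24 μg Se/g.

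Of the actins, the smooth muscle forms rose and the cytoplasmic form did not pass the test. Actg2, γ-actin of smooth muscle, read 7.30, 7.58 and 5.22 at 5 μg Se/g, against 4.23, 4.37 and 4.56 at 0.24 μg Se/g. The groups did not overlap, but replicates 1 and 2 carried most of the change of 2.31 ± 0.46 (SE), or 4.97-fold (adjusted p = 0.0199). Acta2, α-actin of smooth muscle and the usual marker of activated stellate cells, read 7.20, 7.05 and 6.51, against 6.054, 6.005 and 6.011 at 0.24 μg Se/g, a change of 0.90 ± 0.21 (SE; adjusted p = 0.0468). The 5 probe sets that carry both Acta2 and Actc1 differed from it, with values between -0.41 and 0.05 and none called. Actg1, the cytoplasmic γ-actin, read 13.17, 13.14 and 12.64 at 5 μg Se/g, against 12.68, 12.83 and 12.80 at 0.24 μg Se/g. These groups overlapped, and the change of 0.22 had a 95% interval of -0.09 to 0.52. Both probe sets shared by Actb and Actg1 were at 0.05, and neither was called. Actb, the cytoplasmic β-actin, was a control gene in the study's PCR work, and no rat probe set carried its symbol alone. Actin genes are closely alike, as are tropomyosin genes, and how far their probe sets share signal was not tested.

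Both heavy chains of non-muscle myosin rose. Myh10, the heavy chain of non-muscle myosin IIB, had the smallest adjusted p of the list. It read 7.96, 8.15 and 8.18 at 5 μg Se/g, against 6.79, 7.06 and 6.64 at 0.24 μg Se/g, a change of 1.27 ± 0.12 (SE; adjusted p = 0.000462). Here replicate 3 was the highest at 5 μg Se/g, not the lowest. Myh9, the heavy chain of myosin IIA, read 11.88, 11.86 and 11.55, against 11.02, 11.10 and 11.26, a change of 0.64 ± 0.13 (SE; adjusted p = 0.0209), and a further Myh9 probe set was at 0.93 without passing the test. Myl9, a regulatory light chain of myosin, read 9.39, 9.13 and 9.07 at 5 μg Se/g, against 8.58, 8.71 and 8.43 at 0.24 μg Se/g. Its groups were separate, but the change of 0.62 did not pass the test (adjusted p = 0.199). The essential light chain Myl6, read on a probe set with related genes, was at 0.13.

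In all 7 measured genes for crosslinkers, membrane linkers and filament turnover, the 5 μg Se/g livers lay above all 0.24 μg Se/g livers, but 2 passed the test. Filamin A (Flna), which crosslinks filaments into a network, read 9.47, 9.63 and 9.27 at 5 μg Se/g, against 8.12, 8.06 and 8.22 at 0.24 μg Se/g. The change was 1.32 ± 0.14 (SE), or 2.50-fold (adjusted p = 0.000823). Moesin (Msn), which ties filaments to the membrane, read 10.18, 10.46 and 9.67, against 9.24, 9.15 and 9.20, a change of 0.90 ± 0.17 (SE; adjusted p = 0.0158). Both had separate groups.

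The other 5 genes of this kind did not pass. Ezrin (Ezr), a relative of moesin, read 8.59, 8.72 and 8.01 at 5 μg Se/g, against 7.96, 7.80 and 7.99 at 0.24 μg Se/g, so that replicate 3 was barely above the Se-adequate livers (log2 difference 0.52, adjusted p = 0.115). Profilin 1 (Pfn1), which feeds actin monomers to growing filaments, read 12.39, 12.29 and 12.11, against 11.77, 11.76 and 12.09, a log2 difference of 0.39 (adjusted p = 0.626). The α-actinins Actn1 and Actn4, which crosslink parallel filaments, were at 0.51 and 0.23, and Lasp1, an actin-binding LIM protein, at 0.41. Cofilin 1 (Cfl1), which severs filaments, was read on a probe set shared with a related gene and was at 0.94 ± 0.47 (SE).

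Adhesion-site genes had the lowest median change of the roles, 0.42. Of 7 measured, 1 was called, Pdlim7, a PDZ and LIM protein that binds tropomyosin. It read 7.48, 7.80 and 7.34 at 5 μg Se/g, against 6.60, 6.41 and 6.51 at 0.24 μg Se/g, a change of 1.03 ± 0.23 (SE; adjusted p = 0.0368). A second Pdlim7 probe set was at 0.04 and was not called. Paxillin (Pxn), a scaffold of focal adhesions, read 8.75, 8.93 and 8.99 at 5 μg Se/g, against 8.40, 8.58 and 8.43 at 0.24 μg Se/g, a log2 difference of 0.42 with separate groups that missed the threshold (adjusted p = 0.055). Zyxin (Zyx), which gathers at adhesions under tension, read 8.56, 8.99 and 8.64, against 7.99, 7.86 and 8.35, at 0.66 (adjusted p = 0.201). Integrin β1 (Itgb1), a receptor chain for many matrix proteins, and talin 1 (Tln1), which binds its tail, had separate groups at 0.43 and 0.34, and neither passed. Vinculin (Vcl), which strengthens the link of talin to actin, and integrin α5 (Itga5), of the fibronectin receptor, overlapped between the diets at 0.23 and 0.03. The 95% interval of the Itga5 difference was -0.32 to 0.37.

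Vimentin (Vim), the intermediate filament protein of mesenchymal cells, read 11.01, 11.45 and 10.90 at 5 μg Se/g, against 9.66, 9.56 and 9.42 at 0.24 μg Se/g. Its change was 1.58 ± 0.25 (SE), or 2.98-fold (adjusted p = 0.00589). The groups were more than 1 log2 unit apart. Lamin A/C (Lmna), of the nuclear lamina, was at 0.32 with separate groups (adjusted p = 0.32).

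The annexins and S100 proteins had the highest median change of the roles, 1.48 over 5 genes, and 3 were called. S100a6, a calcium-binding protein, read 9.46, 9.96 and 9.34 at 5 μg Se/g, against 7.66, 8.13 and 7.57 at 0.24 μg Se/g, a change of 1.80 ± 0.39 (SE), or 3.49-fold (adjusted p = 0.0326). Annexin A2 (Anxa2), which joins membranes to actin, read 10.02, 10.31 and 9.59, against 8.57, 8.54 and 8.37, a change of 1.48 ± 0.32 (SE; adjusted p = 0.0298). Annexin A1 (Anxa1), which binds membranes when calcium is present, read 9.34, 9.56 and 9.34, against 8.35, 8.76 and 8.27, a change of 0.95 ± 0.20 (SE; adjusted p = 0.0253). Every liver at 5 μg Se/g was above every Se-adequate liver in these 3 genes. S100a11, a calcium-binding partner of annexin A1, read 10.41, 10.79 and 9.77 at 5 μg Se/g, against 8.91, 8.91 and 8.70 at 0.24 μg Se/g, a log2 difference of 1.48 that missed the threshold (adjusted p = 0.0524). S100a4, a calcium-binding protein that binds non-muscle myosin, read 8.42, 8.70 and 7.72, against 7.16, 6.95 and 7.44, at 1.10 (adjusted p = 0.0759). Both had separate groups, with replicate 3 the lowest at 5 μg Se/g. A second Anxa2 probe set, at a mean level of 4.10 at 0.24 μg Se/g, was at 0.02 and was not called.

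The number of calls at 5 μg Se/g depended on single arrays. It was 6 without replicate 1 or without replicate 2 of that diet, 19 without replicate 3, and 6, 7 and 7 without each 0.24 μg Se/g array in turn. The share called over all probe sets in these settings is not given here, so they are not read as particular to these genes. Flna, Myh10, Tagln, Tpm4 and Vim were called in each of the 15 alternative analyses of this comparison, and Tpm2 in 14 of 15.

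**Figure D3:**
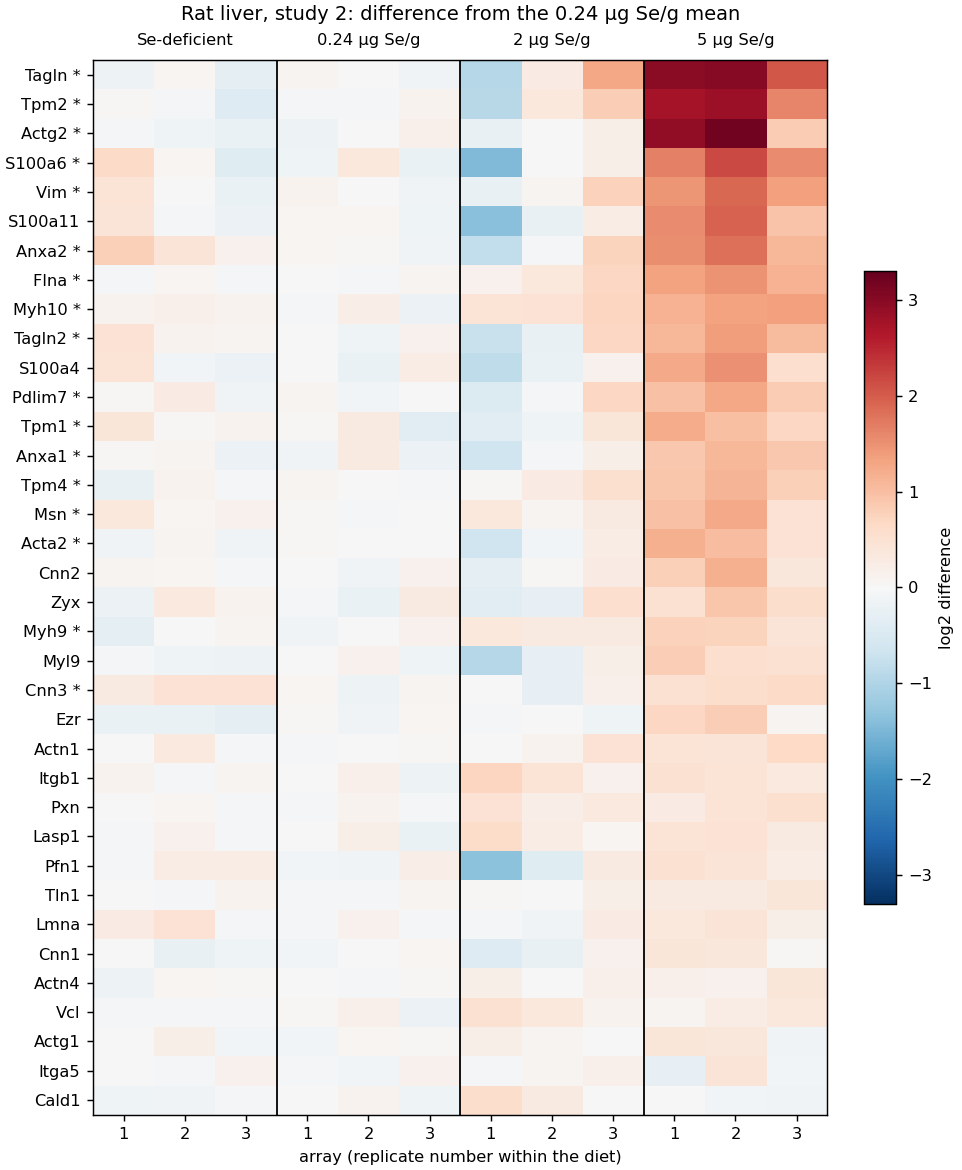
Log2 difference from the 0.24 μg Se/g mean (colour) for the 36 genes (rows, in order of change at 5 μg Se/g, with an asterisk at an adjusted p under 0.05) in the 12 rat study 2 arrays (columns, by diet). The columns of 5 μg Se/g are raised in most rows, and at 2 μg Se/g replicate 3 is mostly raised and replicate 1 mostly lowered.

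The livers at 5 μg Se/g were also set against the other diets of study 2. These comparisons share their 5 μg Se/g arrays, so each is given by its own values. Against 2 μg Se/g, 19 of the 36 genes were higher and 0 lower, where 2.13% of all probe sets were called higher and 1.21% lower, with a median change of 0.71. Against the Se-deficient diet 12 were higher and 0 lower, where 1.75% of all probe sets were called higher and 0.561% lower, with a median change of 0.74. Flna had the smallest adjusted p in both, at a change of 0.93 ± 0.14 against 2 μg Se/g (SE; adjusted p = 0.00818) and of 1.34 ± 0.14 against the Se-deficient diet (SE; adjusted p = 0.000666). Tagln changed by 2.48 and 2.81 in these comparisons, Tpm2 by 2.31 and 2.54, and Actg2 by 2.33 and 2.44, and each passed the test in both. Without replicate 1 at 2 μg Se/g the median change against that diet was 0.63. Tagln was then at 1.91 (adjusted p = 0.0242), Tpm2 at 1.82 (adjusted p = 0.026) and Flna at 0.80 (adjusted p = 0.0242), whereas Actg2, at 2.21, no longer passed (adjusted p = 0.0824).

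The call against 2 μg Se/g took in S100a11, which read 7.46, 8.61 and 9.08 in the livers at 2 μg Se/g (change 1.94 ± 0.36 SE, adjusted p = 0.0206). S100a4 and Myl9 were called there too, at 1.40 and 0.96. Against the Se-deficient diet Ezr was called at 0.77 (adjusted p = 0.0251), whereas Cnn3 was at 0.16 (adjusted p = 0.755). Replicate 1 at 2 μg Se/g was the lowest of its diet in S100a11, S100a4 and Myl9. Without that array 7 genes were called at 5 against 2 μg Se/g, S100a11 was at 1.48 (adjusted p = 0.0355), and neither S100a4, at 1.13, nor Myl9, at 0.66, passed. The count was 2 without 2 μg Se/g replicate 2, and 2 and 1 without 5 μg Se/g replicates 1 and 2. Against the Se-deficient diet it was 6 without 5 μg Se/g replicate 1 or 2, and 6, 7 and 7 without each Se-deficient array. Shares over all probe sets in these settings are likewise not given here. Caldesmon lay lower in every 5 μg Se/g liver than in every 2 μg Se/g liver, as did 10.5% of all probe sets, at a change of -0.37 that did not pass the test (adjusted p = 0.132).

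At 2 μg Se/g itself, none of the 36 genes was called against 0.24 μg Se/g by limma, where 0.00322% of all probe sets were called, and 6 genes had an unadjusted p under 0.05, as did 15.3% of all probe sets. The count was also 0 without replicate 1 of this diet, but 6 without replicate 3, of which 4 were higher. For these settings the share over all probe sets is not given here. The median change was 0.06, against -0.02 over all probe sets, and it was 0.14, 0.10 and -0.11 without replicates 1, 2 and 3 of this diet, so that its sign depended on replicate 3. Groups were separate, with 2 μg Se/g higher, for 5 genes, compared with 5.85% of all probe sets. Myh10 was among them, with 7.27, 7.31 and 7.53 at 2 μg Se/g, against 6.79, 7.06 and 6.64 at 0.24 μg Se/g (change 0.54 ± 0.12 SE, adjusted p = 0.321). Flna read 8.27, 8.49 and 8.82, against 8.12, 8.06 and 8.22, a change of 0.40 (adjusted p = 0.321).

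Levels were uneven over the 3 livers at 2 μg Se/g. Over the 17 genes called at 5 μg Se/g, the median difference from the 0.24 μg Se/g mean was -0.37, 0.02 and 0.52 in replicates 1, 2 and 3, and replicate 3 was above that mean in all 17. At 5 μg Se/g the same medians were 1.17, 1.32 and 0.88. Tagln shows the spread, with 6.93, 8.15 and 9.15 in the 3 livers at 2 μg Se/g. Replicate 1 was below, and replicate 3 above, every Se-adequate liver. Pfn1 had the same order, with 10.51, 11.47 and 12.16, and Cald1 the reverse, with 12.68, 12.41 and 12.10. Of the 36 genes, 18, 9 and 1 were below every Se-adequate liver in replicates 1, 2 and 3, where 37.2%, 34.9% and 21.5% of all probe sets were. In these arrays 11, 14 and 27 of the genes were above every Se-adequate liver, where 34%, 26.6% and 21.6% of all probe sets were. Across study 2 the mean level was highest at 5 μg Se/g for 32 of the 36 genes and at 2 μg Se/g for the other 4, Vcl, Cald1, Itgb1 and Itga5. Without replicate 1 at 2 μg Se/g, a setting chosen after seeing the data, it was highest at 5 μg Se/g for 33 genes and at 2 μg Se/g for 3, Vcl, Cald1 and Itga5. The share of all probe sets with their highest mean at 5 μg Se/g was not counted.

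**Figure D4:**
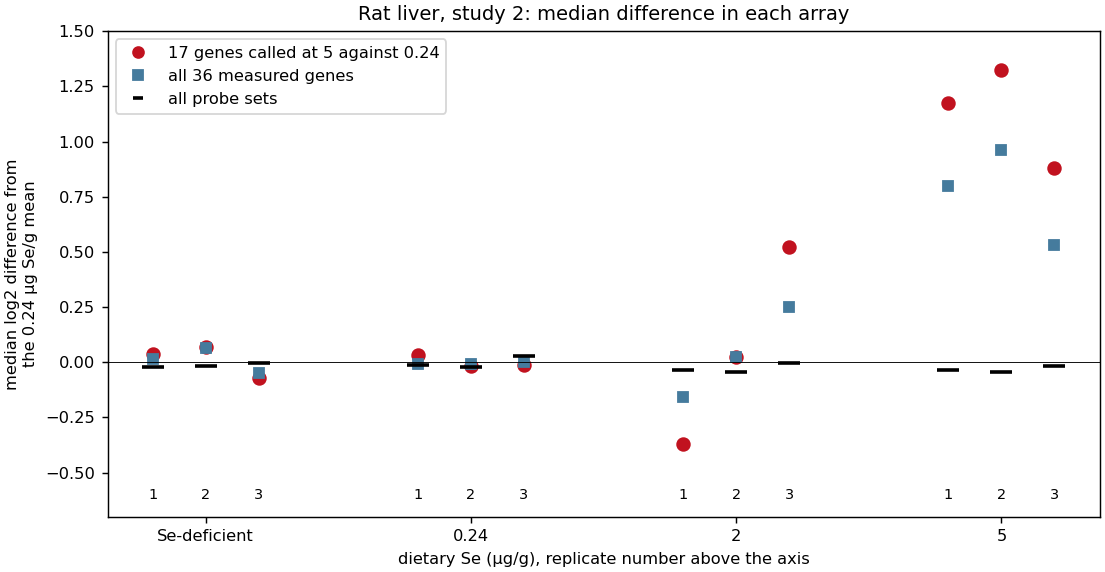
Median log2 difference from the 0.24 μg Se/g mean (y axis) in each of the 12 rat study 2 arrays (x axis, by dietary Se), for the 17 genes called at 5 against 0.24 μg Se/g, all 36 measured genes and all probe sets. The 17 genes were chosen by the 5 μg Se/g arrays, so the height of those points is a description, and at 2 μg Se/g the red points run between -0.37 and 0.52.

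No gene of the list passed the test under Se deficiency. In rat liver, 0 of the 36 were called between the Se-deficient diet and 0.24 μg Se/g, where 0.00322% of all probe sets were called, and the smallest adjusted p was 0.999. The median change was 0.04, and 1 gene, Cnn3, had an unadjusted p under 0.05, as did 3.4% of all probe sets. Cnn3 read 10.90, 11.09 and 11.07 in Se-deficient livers, against 10.68, 10.44 and 10.70 in Se-adequate livers, with no overlap and a change of 0.41 (adjusted p = 0.999). Tagln read 7.71, 7.95 and 7.58, against 7.97, 7.90 and 7.77, and the diets overlapped. Across the 36 genes, 3 had separate groups with the Se-deficient livers higher and 1, Ezr, with them lower, where 5.75% and 5.89% of all probe sets did. In study 1, 0 of 36 were called between 0.8 and 0.08 μg Se/g, where 0% of all probe sets were called, and 3 had an unadjusted p under 0.05 against 4.58% of all probe sets, all lower at 0.8 μg Se/g (Tpm1, Pfn1 and Itga5, at -0.30, -0.45 and -0.32). Levels of study 1 were not tested against those of study 2, because diet and study cannot be told apart.

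Genes of the same pathways outside the list were read at 5 against 0.24 μg Se/g too. The 6 lists were chosen with earlier results of these data known, so their counts are a description. Of 82 measured genes, 12 were higher and 0 lower, where 2.21% of all probe sets were called higher and 0.609% lower. The largest change was that of caveolin 1 (Cav1), the coat protein of caveolae, at 9.20 against 6.79 (change 2.41 ± 0.33 SE, adjusted p = 0.00333). The LIM protein Fhl2 changed by 1.37, plectin (Plec), which links filament systems, by 0.73 and desmin (Des), the intermediate filament of muscle and of rat stellate cells, by 0.93. Among regulators, the small GTPases Rhoc and Rhob were higher by 1.31 and 1.04, whereas Rhoa was at 0.01 and Srf, the transcription factor that drives many actin genes, at 0.18, and neither passed. None of the 7 measured genes of the Arp2/3 complex, which starts branched filaments, was called. In the comparisons of 2 μg Se/g and of the Se-deficient diet with 0.24 μg Se/g, 0 of the 82 were called, where 0.00322% of all probe sets were called in each. At 2 μg Se/g the count was also 0 without replicate 1 of that diet, again a setting chosen after seeing the data.

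Some markers of other liver cells also differed at 5 μg Se/g, and their part in the changes was not tested. Their lists, too, were chosen with earlier results of these data known. Of 57 marker readings, 10 were higher and 2 lower than at 0.24 μg Se/g, with Des counted in 2 lists, where 2.21% of all probe sets were called higher and 0.609% lower. Myh11 of smooth muscle was higher by 1.29, the fibroblast genes Col1a1, Col1a2 and Lox by 1.62, 1.20 and 2.27, the endothelial genes Pecam1, Tek and Vwf by 0.92, 0.62 and 1.11, and Krt19 of bile duct by 2.63. The other 4 endothelial genes were not called, with Egfl7 at 0.70 (adjusted p = 0.0657) and Kdr, Stab2 and Lyve1 at -0.30, -0.35 and -0.14. In contrast, Lrat, the retinol-esterifying enzyme of stellate cells, was lower by 2.11 on the log2 scale, at 6.97 against 9.08, and Clec4f of Kupffer cells was at 9.82 against 11.60. Clec4f was the only call among 6 macrophage markers, of which 3 lay above 0. All 5 leukocyte markers measured lay above 0, with a median of 0.40, and 0 were called. Krt19 was the only call among 5 bile duct markers, whose median was 0.17. Of 6 smooth muscle markers 2 were called, both higher, and 5 lay above 0. Of 10 stellate cell and fibroblast markers 4 were called higher and 1 lower, and 7 lay above 0. None of the 7 hepatocyte genes was called. The summed level of the 6 smooth muscle markers ran between 11.41 and 11.60 on the log2 scale at 5 μg Se/g, against 11.28 and 11.40 at 0.24 μg Se/g, and that of the 10 stellate cell and fibroblast markers between 12.62 and 13.06, against 12.34 and 12.92. That of the 7 endothelial markers ran between 12.58 and 12.84, against 12.52 and 12.87, and the last 2 of these sums overlapped between the diets. The smooth muscle sums at 5 and 0.24 μg Se/g lay just apart. These sums add unlogged levels, and the highest of the 6 smooth muscle markers alone had a mean of 11.13 at 5 and 11.04 at 0.24 μg Se/g. The smooth muscle sum therefore rests mainly on its highest marker and shows little of the others. At 5 μg Se/g that sum overlapped the Se-deficient livers (11.16 to 11.47) and the 2 μg Se/g livers (11.28 to 11.49). Lmod1 of smooth muscle was at 4.19 and 4.04 in the 5 and 0.24 μg Se/g livers, and no marker was listed at 0. The 3′ minus 5′ difference of the β-actin control probe sets, a sign of RNA integrity, was 1.52 ± 0.18 in 5 μg Se/g livers, against 1.51 ± 0.03 in Se-adequate livers (SD over 3 arrays each). By array it was 1.47, 1.38 and 1.72 at 5 μg Se/g, against 1.49, 1.54 and 1.49 at 0.24 μg Se/g. Replicate 3 at 5 μg Se/g was thus the highest in this difference, and it was also the lowest of its diet in Tagln, Tpm2 and Actg2. The part of this difference in the values of that array was not tested.

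The promoters of these genes are shown because many actin genes carry the CArG box, the site known to bind Srf. RefSeq promoter windows of the mouse (build GRCm38.p6) were searched on both strands over the 250 bases before the start. Entries were found for 35 of the 39 genes and none for Tagln, Actb, Actg2 and Pxn. An exact box was held by 5 of the 35 genes, against 1.62% of the 27025 genes of the table. With 1 base off allowed, 13 of the 35 held one, against 21.1% of all genes. The 5 exact boxes follow with 20 bases on either side, in gene direction, with the box in capitals, and then the 2 boxes of Acta2 that are 1 base off.
Actg1 (chr11:120348556-120348605, minus strand): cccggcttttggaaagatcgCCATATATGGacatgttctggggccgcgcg
Cnn2 (chr10:79988524-79988573, plus strand): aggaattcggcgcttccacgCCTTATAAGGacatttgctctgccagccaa
Myl6 (chr10:128493030-128493079, minus strand): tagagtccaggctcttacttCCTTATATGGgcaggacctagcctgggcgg
Myl9 (chr2:156775283-156775332, plus strand): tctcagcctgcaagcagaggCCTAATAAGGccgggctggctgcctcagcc
Vcl (chr14:20929151-20929200, plus strand): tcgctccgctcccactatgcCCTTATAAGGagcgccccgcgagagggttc
Acta2 (chr19:34255428-34255477, minus strand): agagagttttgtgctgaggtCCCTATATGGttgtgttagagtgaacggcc
Acta2 (chr19:34255378-34255427, minus strand): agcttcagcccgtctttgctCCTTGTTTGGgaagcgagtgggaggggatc
Of the genes called in rat liver at 5 μg Se/g, 15 had a mouse entry and 0 held an exact box in this window, while 4 of the 18 measured genes that were not called held one (Actg1, Cnn2, Myl9 and Vcl). With 1 base off allowed, 3 of the 15 and 8 of the 18 held one. These are mouse sequences beside rat levels, a match is not a binding site, and a window without one says only that these letters are not there.

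In mouse tissues, which were given no diet above 0.2 μg Se/g, none of the 38 genes was called in any of the 4 comparisons with that diet. In liver this was 0 of 38 between the Se-deficient and the Se-adequate diet, where 0.0222% of all 45037 probe sets were called, and 1 gene had an unadjusted p under 0.05, as did 4.63% of all probe sets. That gene was Actn1, with 8.35, 8.28 and 8.02 in Se-deficient livers, against 7.91, 8.04 and 7.99 in Se-adequate livers (change 0.24 ± 0.10 SE, adjusted p = 0.926). The diets overlapped in 1 array. The median change of the 38 genes was 0.02, and Tagln and Acta2 were among the genes without a call. Tagln read 7.28, 7.39 and 7.30 in Se-deficient livers, against 7.55, 7.23 and 7.75 in Se-adequate livers, and Acta2 read 7.29, 7.71 and 7.35, against 7.37, 7.50 and 7.94. Both overlapped.

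At 0.05 μg Se/g in mouse liver 0 of 38 genes were called and 0% of all probe sets, and 2 genes had an unadjusted p under 0.05, as did 1.95% of all probe sets. S100a4 had the largest difference of any mouse comparison, 0.59 ± 0.25 (SE; adjusted p = 0.9999), and 1 liver was high. It read 5.04, 4.85 and 6.09 at 0.05 μg Se/g, against 4.72, 4.90 and 4.58 at 0.2 μg Se/g. The same liver, replicate 3, was also highest for Vim, with 8.28, 8.26 and 9.36, against 8.28, 8.18 and 8.32, and for S100a6, with 4.60, 4.48 and 5.40, against 4.43, 4.46 and 4.64. That array had 174 probe sets over 2-fold from the Se-adequate mean, compared with 36 and 28 in the other arrays of its diet. All 7 macrophage and all 5 leukocyte marker genes measured were higher at 0.05 than at 0.2 μg Se/g on average, with medians of 0.31 and 0.36 and none called. Their part in these values was not tested.

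In mouse kidney 0 of 38 genes were called between the Se-deficient and the Se-adequate diet, where 0.00666% of all probe sets were called, and 0 had an unadjusted p under 0.05, as did 5.42% of all probe sets. At 0.05 against 0.2 μg Se/g there were 0 of 38, where 0% of all probe sets were called, and 2, Actb and Itga5, had an unadjusted p under 0.05, as did 2.91% of all probe sets. Myh9 had the highest kidney change in both, 0.48 and 0.47, with a single Se-adequate kidney far below the rest. It read 11.90, 11.84 and 12.46 in Se-deficient kidneys and 11.73, 12.13 and 12.30 at 0.05 μg Se/g, against 10.51, 11.78 and 12.46 at 0.2 μg Se/g. The low value of 10.51 was replicate 1 of the Se-adequate diet, and the diets overlapped. Actb read 13.84, 13.86 and 13.98 in Se-deficient kidneys and 14.08, 13.97 and 13.87 at 0.05 μg Se/g, against 13.51, 13.70 and 13.94 at 0.2 μg Se/g. Tpm2 was the gene with the most separate groups, at small sizes. It read 8.54, 8.57 and 8.48 in Se-deficient kidneys and 8.48, 8.48 and 8.66 at 0.05 μg Se/g, against 8.45, 8.31 and 8.44 at 0.2 μg Se/g, log2 differences of 0.13 and 0.14. In mouse liver at 0.05 μg Se/g it was lower, at -0.21.

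Groups seldom separated in the mouse. In liver 1 gene was higher and 1 lower without overlap in Se-deficient against Se-adequate animals, where 3.45% and 4.15% of all probe sets were. At 0.05 against 0.2 μg Se/g there were 2 higher and 1 lower, where 3.06% and 2.4% were. In Se-deficient kidneys there were 2 higher and 1 lower, where 4.41% and 4.25% were, and at 0.05 μg Se/g in kidney 1 higher and 0 lower, where 3.33% and 3.15% were. Over all 4 mouse comparisons the log2 changes ran between -0.50 and 0.59, and 1 of 152 was beyond 0.5 in size.

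The response to deficiency was also compared between mouse liver and kidney in 1 fit, as an interaction term. None of the 38 genes was called, where 0.00222% of all probe sets were called, and 0 had an unadjusted p under 0.05, as did 5.79% of all probe sets. The smallest adjusted p was 0.835, and the differences ran between -0.33 and 0.20. That fit took the 18 arrays as independent, although both tissues came from the same mice. The labels number both tissues alike within a diet, but whether equal numbers mean the same mouse is not certain. With diet and replicate number as a block, 0 of the 38 genes were called, and the smallest adjusted p was 0.745.

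**Figure D5:**
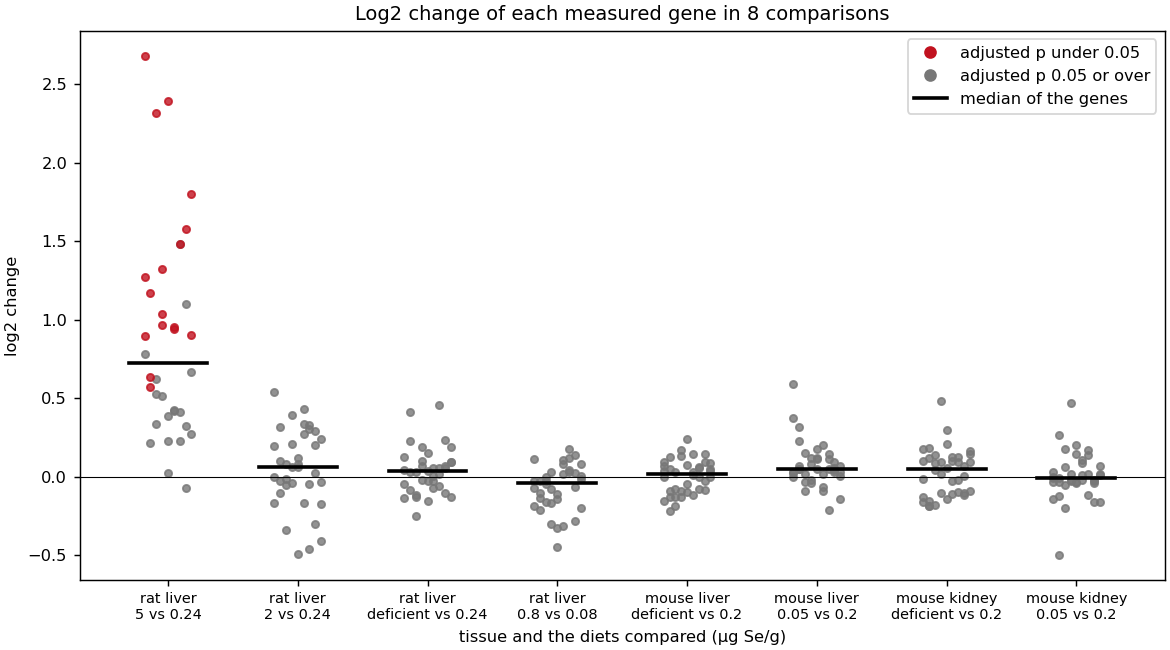
Log2 change (y axis) of each measured gene in 8 comparisons (x axis, the tissue and its diets in μg Se/g), 1 point per gene, with the median as a bar and genes at an adjusted p under 0.05 in red. Rat liver at 5 against 0.24 μg Se/g has a median of 0.72 and 17 red points, and the other 7 comparisons have none and medians between -0.04 and 0.06.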

How the data were processed

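The deposited tables hold log2 expression values per probe set and array, which the authors made from the array scans. The submitters' processing notes name GCRMA, while the methods describe RMA, so the exact summary is not settled, and rat studies and mouse tissues were processed separately. Gene symbols came from the platform annotation, control probe sets (64 mouse, 57 rat) were left out, and no signal filter was applied. Of all probe sets, 34945 mouse and 20826 rat ones carried 1 symbol. Where a gene had several, the one brightest on average in that tissue stood for it.

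Each tissue and study was fitted in limma 3.58.1 (R 4.3.3) with 1 coefficient per diet, on 9 mouse liver, 9 mouse kidney, 12 rat study 2 and 6 rat study 1 arrays, and 18 mouse arrays for the tissue difference. p-values were moderated (eBayes) and adjusted by Benjamini-Hochberg over all 45037 mouse or 31042 rat probe sets, with calls under 0.05. The scripts were tested on simulated data. All 39 genes were named by rule. The list, the pathway and the marker lists were chosen with earlier results of these data known. Values carry the precision of 3 arrays per diet. Alternatives were the arrays sharing the spread, trend and robust priors, array weights, a signal filter, quantile normalization, a replicate block, the second probe set and leaving out each array.

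Replicate numbers are shared between diets. Between diets, arrays of the same number had r over 0.1 for every number in 1 comparison, mouse liver Se-deficient against 0.2 μg Se/g (r = 0.462, 0.105 and 0.319 over probe sets), where the replicate block called 0 genes, as without it. There the Se-deficient array of number 2 deviated more with a Se-adequate array of another number (r = 0.265). Between mouse liver and kidney of 1 diet, arrays of the same number had r over 0.1 at 0.05 μg Se/g (r = 0.212, 0.249 and 0.212) and at 0.2 μg Se/g (r = 0.241, 0.116 and 0.214), but not at the Se-deficient diet (r = -0.114, 0.0313 and -0.0631). A block of diet and number left the tissue comparison at 0 calls.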

Additional observations from a re-analysis of the deposited data

How the results depend on the processing

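All counts of 0 for mouse tissues, for rat Se-deficient against 0.24 μg Se/g and for 0.8 against 0.08 μg Se/g stayed at 0 under each alternative that was run. At 5 against 0.24 μg Se/g (17 genes) array weights gave 28, leaving out single arrays 6 to 19, and the replicate block 12. With the 3 arrays at 2 μg Se/g left out of that fit, all 17 calls were kept and 6 more genes were called. With the second probe set, where a gene had one, 12 of these calls were kept, 4 were lost and Tpm2 turned its sign. Genes with a single probe set were read on it again, so their calls were kept by design and were not a second reading. Of the 20 further probe sets of 13 genes, 2 were called higher. At 5 against 2 μg Se/g (19 genes) fitting only the 2 diets gave 0, array weights 32, the replicate block 12, and leaving out single arrays 1 to 27. At 5 μg Se/g against the Se-deficient diet (12 genes) one fit of all 18 arrays gave 19, array weights 26, and leaving out single arrays 6 to 15. At 2 against 0.24 μg Se/g (0 genes) array weights gave 13 and leaving out single arrays 0 to 6. The cause was not tested, and the share called over all probe sets under each alternative is not given here. The replicate block changed no other count of calls by over 1.5 times. Signs turned for genes with several probe sets. With the second probe set Tpm2 was at -0.21 at 5 against 0.24, -0.12 at 5 against 2 and -0.057 at 5 μg Se/g against the Se-deficient diet, Cald1 at -0.13 at 2 against 0.24 and 0.016 at 5 against 2, and Lasp1 at -0.076 at 5 against 2 μg Se/g. There Lasp1 ran between -0.00700, without 2 μg Se/g replicate 3, and 0.255, without replicate 1, when single arrays were left out. Cnn3 at 2 against 0.24 μg Se/g turned to 0.10 without 2 μg Se/g replicate 2 and to 0.0088 and 0.019 without 0.24 μg Se/g replicates 1 and 3. Array weights did not converge fully in some fits. The number of arrays, 3 per diet, limits the precision.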
